A study of Homo sapiens with 6 samples.

Results

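The genes described here are 9 members of the poly(ADP-ribose) polymerase (PARP) family, PARP1, PARP2, PARP4, PARP8, PARP9, PARP10, PARP12, PARP14 and TNKS, together with DTX3L, the ubiquitin ligase that binds PARP9. They are 10 of the 60671 genes in the deposited count table, found by their symbols, and all 10 passed the filter on low counts. They were selected on their counts in the comparison of the groups described below, which was already known when they were chosen, so their differences are given as values with standard errors and without p-values.

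MM.1S is a human multiple myeloma line, that is, a line of malignant plasma cells. The WT group was the parental line and the CD38 KO group a single CRISPR/Cas9 clone of it that had lost CD38, a surface enzyme that hydrolyses NAD. Both lines carried GFP and click beetle red luciferase, and live cells were sorted before RNA extraction, CD38-positive ones from WT and CD38-negative ones from CD38 KO. Each group had 3 libraries, prepared as biological replicates of the sorted population according to the labels, so the errors below describe the spread between preparations of 1 WT line and 1 clone. What belongs to the clone and what to the loss of CD38 cannot be told apart.

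Library totals ranged from 61515519 to 72335496 counts. CD38 had 3148, 2678 and 2545 counts in WT and 51, 80 and 48 in CD38 KO. All 6 plasma cell markers examined were present, at a summed 5201 to 5234 CPM (counts per 1000000 of the TMM-scaled library size) in WT and 7476 to 7560 CPM in CD38 KO. The summed markers of monocytes, fibroblasts and epithelial cells stayed under 3 CPM in every library. T cell markers summed to 2.09 to 2.36 CPM in WT and 5.62 to 6.43 CPM in CD38 KO, nearly all of the difference from CD3E, while CD3D was at or near 0 in both groups. NK cell markers summed to 54.2 to 68.6 CPM through NCAM1, and erythroid markers to 23.2 to 32.7 CPM through HBB. Below, a CPM value with ± is a mean with the SD over the 3 libraries of a group. In RNA from a whole population, fewer cells of a type and less RNA per cell cannot be told apart.

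PARP enzymes take ADP-ribose from NAD and attach it to proteins or nucleic acids. PARP1 and PARP2 build chains of it at DNA breaks and recruit repair factors, and the tankyrases build chains on proteins that the ubiquitin system then removes. Most other members attach single units or are inactive on their own. PARP9, PARP10, PARP12, PARP14 and DTX3L are known as genes that interferons induce, and PARP9 and PARP14 carry macrodomains, which bind ADP-ribose. PARP9 and DTX3L form a complex that acts in DNA damage and interferon signalling, and PARP9 was first described in aggressive B cell lymphoma.

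The promoters of the interferon-linked members are shown first, because PARP9 and DTX3L, which start next to each other on opposite strands, went up in the clone while PARP12 and PARP14 went down. RefSeq promoter windows (GRCh38.p14, 250 bases before to 50 after the start) were found for 7 of the 10 genes, 10 windows in all, and not for PARP4, PARP10 and TNKS. Both strands were searched for the core of the interferon-stimulated response element, written as GAAA, any 2 bases and GAAA again, for the interferon gamma element, TTCNNNGAA, and for the form preferred by STAT6, with 4 bases instead of 3 between TTC and GAA. The first was found for PARP9, DTX3L, PARP12 and PARP14, the second for PARP2 and PARP14 and the third for none of the 7. Each stretch below is 30 bases, with the matches in capitals.
PARP9 and DTX3L, chr3:122564322-122564351, plus strand: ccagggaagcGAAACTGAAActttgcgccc
PARP14, chr3:122680795-122680824, plus strand: agttTTCCAGGAAacGAAAGCGAAAgagtc
PARP12, chr7:140062942-140062971, plus strand: ggcgggaaacGAAACCGAAAgcggccccgg
PARP2, chr14:20343471-20343500, plus strand: ttatggtgatTTCCCAGAAcacatagcgac

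PARP9 and DTX3L share 1 match. Their RefSeq starts, at positions 122564300 and 122564338 of chromosome 3, lie 38 bases apart and are read away from each other. The match begins 6 bases before the DTX3L start and 41 bases before that of PARP9. In GENCODE 29 it lies in a non-coding part of a DTX3L exon and within the span of PARP9. In PARP14 the 2 matches stand side by side without overlap, 40 and 29 bases before the start, and in PARP12 the match begins 10 bases before it. GENCODE 29 places the PARP14 and PARP12 matches in non-coding exon sequence of the gene itself, where longer transcripts start further upstream. Of all 35116 promoter windows, 3.57% held the first motif, 7.66% the second and 6.44% the third.

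PARP9 had the largest difference of the 10 genes. PARP9, a macrodomain protein with little catalytic activity of its own (ENSG00000138496; chromosome 3, 122527924 to 122564577, minus strand, GENCODE 29, build GRCh38), was at 3.54, 2.76 and 3.17 CPM in WT and at 16.2, 16.4 and 17.4 CPM in CD38 KO. All 3 CD38 KO libraries were far above all 3 WT libraries. The fitted log2 fold change was 2.40 ± 0.112 (SE), a 5.27-fold difference, from 262, 183 and 208 counts in WT to 1037, 973 and 1077 in CD38 KO.

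DTX3L, the ubiquitin ligase partner of PARP9 (ENSG00000163840; chromosome 3, 122564238 to 122575203, plus strand), was at 7.63, 7.55 and 7.67 CPM in WT and at 18.9, 17.9 and 20.9 CPM in CD38 KO. The WT libraries were close together, with an SD of 0.0649 CPM (n = 3), and the groups were well apart, with a log2 fold change of 1.34 ± 0.0911 (SE). PARP9 rose more than its partner: its count was 0.464, 0.366 and 0.413 of that of DTX3L in WT against 0.858, 0.913 and 0.832 in CD38 KO, a ratio 2.10-fold higher. The 2 genes have 217 exon bases in common on opposite strands, 2.43% of the exon bases of PARP9 and 3.70% of those of DTX3L. Reads from those bases cannot be assigned to one or the other where strand is not used in counting.

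PARP14, which adds single ADP-ribose units and assists STAT6 in interleukin-4 responses (ENSG00000173193; chromosome 3, 122680618 to 122730840, plus strand), went the other way. It was at 39.6, 35.8 and 38.3 CPM in WT and at 29.4, 26.4 and 27.1 CPM in CD38 KO, with no overlap and a log2 fold change of -0.45 ± 0.0665 (SE). The counts of the 3 neighbours on chromosome 3 were closer to each other in CD38 KO than in WT. PARP14 had 11.2, 12.9 and 12.1 times as many counts as PARP9 in WT but 1.81, 1.62 and 1.56 times as many in CD38 KO.

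PARP12, a zinc finger member that adds single ADP-ribose units and is found at the Golgi and in stress granules (ENSG00000059378; chromosome 7, 140023744 to 140063721, minus strand), had the largest difference downward. It was at 11.3, 11.1 and 13.8 CPM in WT and at 4.57, 5.33 and 4.54 CPM in CD38 KO. Every CD38 KO library was far below every WT library, and the log2 fold change was -1.33 ± 0.119 (SE), a level 39.8% of that in WT. PARP10, a further enzyme that adds single units (ENSG00000178685; chromosome 8, 143977153 to 144012772), was at 113, 106 and 111 CPM in WT and at 119, 129 and 126 CPM in CD38 KO. Its groups did not overlap, but its log2 fold change of 0.18 ± 0.0461 (SE) was the smallest of the 10 and was 0.0946, not past the threshold, with library size alone as the scaling. PARP10 also has 8.64% of its exon bases in common with GRINA and SPATC1 on the opposite strand.

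**Figure D1:**
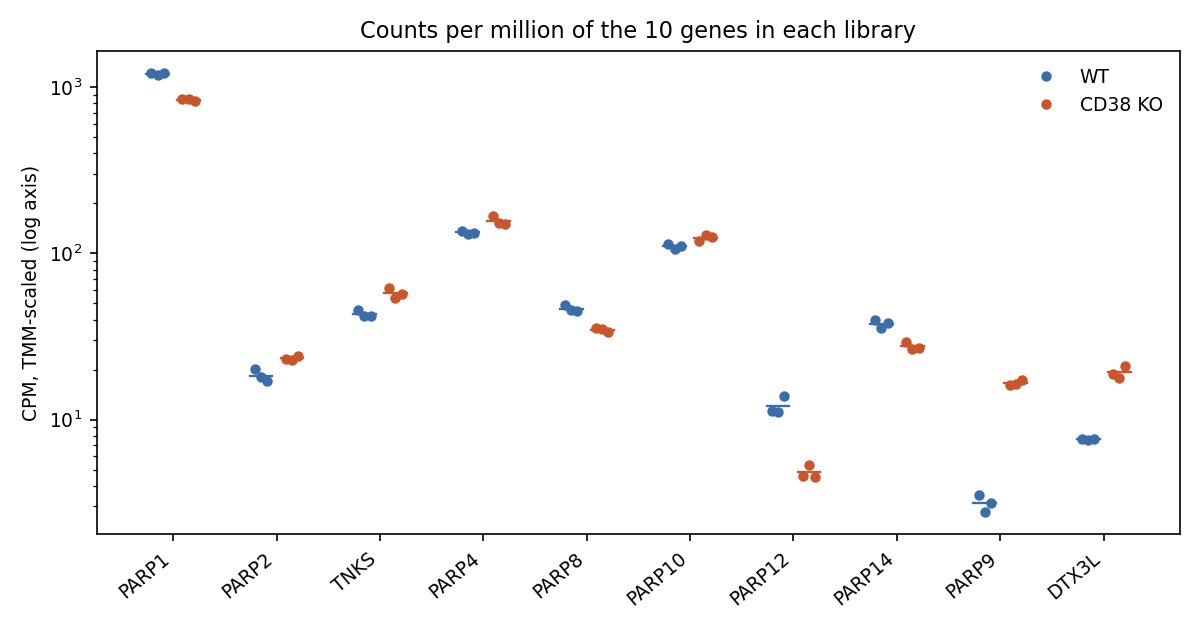
CPM (TMM-scaled, log axis) of the 10 genes in the 3 WT libraries (blue) and the 3 CD38 KO libraries (orange), each point a library and each line a group mean. PARP9 goes from 3.16 to 16.7 CPM and PARP12 from 12.1 to 4.81 CPM, and the ranges of the groups do not overlap for any of the 10 genes, nor for 52.5% of all tested genes.

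PARP1 was the most abundant of the 10 genes and was lower in CD38 KO. PARP1, the main sensor of DNA strand breaks (ENSG00000143799; chromosome 1, 226360691 to 226408079, minus strand), was at 1215, 1182 and 1224 CPM in WT and at 848, 848 and 830.1 CPM in CD38 KO. The 3 CD38 KO libraries were close together, at 69.8% of the WT mean, with a log2 fold change of -0.52 ± 0.0339 (SE). Pseudogenes named after PARP1 held a summed 0.623% of its counts. How reads matching both were counted is not known, and their effect on its level was not tested.

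PARP2, the second enzyme activated by DNA breaks (ENSG00000129484; chromosome 14, 20343582 to 20357905, plus strand), was higher instead. It was at 20.05, 17.98 and 17.2 CPM in WT and at 23.2, 23.0 and 24.1 CPM in CD38 KO, with a log2 fold change of 0.35 ± 0.0777 (SE). The WT libraries of PARP2 were spread more widely than those of CD38 KO, but the highest stayed below every CD38 KO library. PARP1 had 65.9 ± 5.37 times as many counts as PARP2 in WT and 36.0 ± 1.34 times as many in CD38 KO (SD, n = 3).

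TNKS, the tankyrase that modifies AXIN and the telomere protein TERF1 (ENSG00000173273; chromosome 8, 9555914 to 9782346, plus strand), was at 45.8, 42.1 and 42.3 CPM in WT and at 61.6, 54.1 and 56.9 CPM in CD38 KO, with a log2 fold change of 0.41 ± 0.0591 (SE). All 3 CD38 KO libraries of TNKS were above all WT libraries. PARP4, the PARP of the vault ribonucleoprotein particle (ENSG00000102699; chromosome 13, 24420926 to 24512810, minus strand), was at 137, 132 and 133 CPM in WT and at 167, 153 and 151 CPM in CD38 KO, with a log2 fold change of 0.23 ± 0.0454 (SE). PARP8, a little studied member (ENSG00000151883; chromosome 5, 50665899 to 50846522, plus strand), was at 48.7, 45.7 and 45.0 CPM in WT and at 35.4, 35.0 and 33.6 CPM in CD38 KO, with a log2 fold change of -0.42 ± 0.0584 (SE). PARP8 was thus lower in every CD38 KO library, by an amount close to that of PARP14. On the opposite strand, antisense genes overlap 3.17% of the exon bases of PARP2 and 4.28% of those of TNKS, and pseudogenes named after PARP4 held a summed 1.09% of its counts.

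In all, 6 of the 10 genes were higher and 4 lower at an edgeR adjusted p under 0.05, with a median log2 fold change of 0.20. Over all 20120 tested genes 44.4% were past that threshold, 22.8% higher and 21.6% lower, and the median was 0.000212. The CPM ranges of the groups did not overlap for all 10 genes and for 52.5% of all tested genes. Among tested genes with a mean CPM at or above that of the lowest of the 10, 63.2% were past the threshold. Because the genes were chosen with this comparison known, nothing is read from their share. PARP9, DTX3L and PARP12 differed by a log2 value of 1 or more, and 11.3% of all tested genes had such a difference with an adjusted p under 0.05. The other 7 lay between 0.18 and 0.52 in size.

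Levels of different genes were compared as CPM per kb of exon in GENCODE 29, which may not be the annotation the counts were made with. The length takes in every annotated exon base of a gene, not the transcripts these cells made. The spread between libraries does not include error in that length. PARP1 stood first in both groups, at 168 ± 3.04 in WT and 117 ± 1.44 CPM per kb in CD38 KO (SD, n = 3). PARP4 and PARP10 followed in both groups, at 22.0 ± 0.432 and 18.3 ± 0.648 CPM per kb in WT and 25.8 ± 1.47 and 20.7 ± 0.910 CPM per kb in CD38 KO. PARP1 alone made up 73.4%, 74.0% and 74.1% of the summed level per kb of the 10 genes in WT, against 63.1%, 63.6% and 63.1% in CD38 KO. The other 9 together were at 61.6, 57.9 and 59.5 CPM per kb in WT and at 69.3, 67.8 and 67.8 CPM per kb in CD38 KO, so the summed level without PARP1 was higher in every CD38 KO library.

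Below these 3 genes the order changed between the groups. In WT it ran PARP8, PARP2, PARP14, TNKS, PARP12, DTX3L and PARP9, from 4.62 ± 0.195 down to 0.353 ± 0.0435 CPM per kb (SD, n = 3), and of the neighbours in the order only PARP8 and PARP2 had overlapping ranges. In CD38 KO it ran PARP2, TNKS, PARP8, DTX3L, PARP14, PARP9 and PARP12, from 5.72 ± 0.147 down to 0.765 ± 0.0712 CPM per kb (SD, n = 3), and only PARP8 and DTX3L overlapped. PARP9, the lowest in WT, stood above PARP12 in CD38 KO. DTX3L, below PARP14 in WT at 1.30 against 3.61 CPM per kb, stood above it in CD38 KO at 3.28 against 2.64 CPM per kb. That crossing rests on the exon lengths used, 5.87 kb for DTX3L and 10.5 kb for PARP14. In CPM, DTX3L stayed below PARP14 in CD38 KO, at 19.2 against 27.7.

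**Figure D2:**
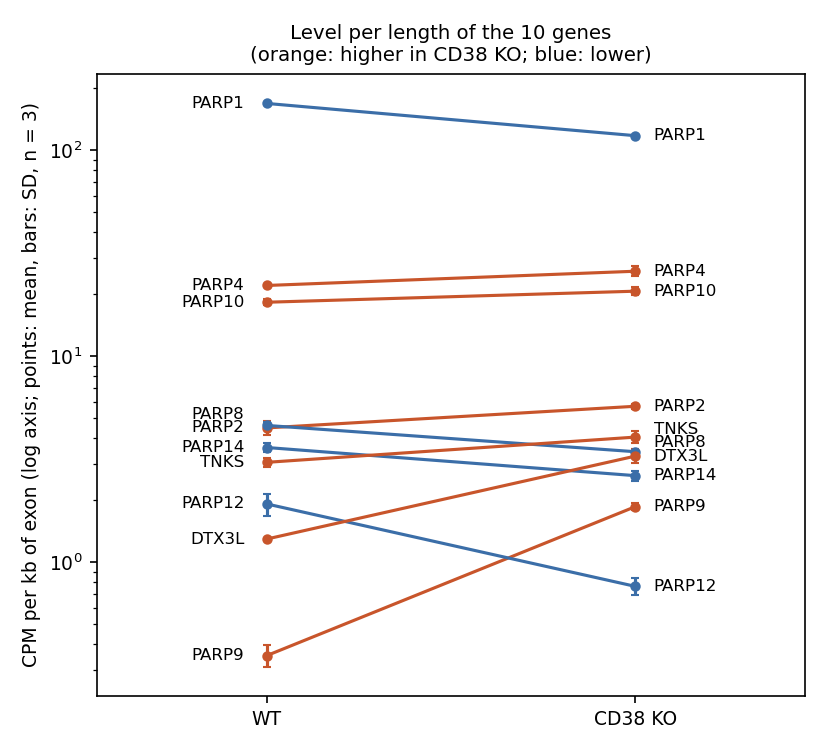
Level per length (CPM per kb of exon, log axis) of the 10 genes in WT and CD38 KO, with points for means and bars for SD over 3 libraries; orange lines are genes higher in CD38 KO, blue lines genes lower. PARP1 falls from 168 to 117 CPM per kb and stays first, while the lines of DTX3L and PARP14 and those of PARP9 and PARP12 cross. The crossing of DTX3L and PARP14 rests on the exon lengths used and is not seen in CPM.

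The remaining PARP family genes were examined next to see how the 10 compare with their own family. Of 7 tested, 4 rose, 2 fell and PARP16 was not past the threshold, with a median log2 fold change of 0.25. These 7 are what was left of the family after the 10 were chosen. PARP6 rose from 61.0 ± 2.91 to 105 ± 0.749 CPM (log2 fold change 0.79, edgeR adjusted p = 1.88e-11). ZC3HAV1, the antiviral zinc finger protein also called PARP13, fell from 121 ± 4.07 to 78.6 ± 2.09 CPM (log2 fold change -0.62, edgeR adjusted p = 3.47e-10). PARP3, which acts in the repair of double-strand breaks, and TNKS2, the second tankyrase, rose by log2 fold changes of 0.42 and 0.25 (edgeR adjusted p = 1.04e-06 and 9.72e-05).

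Both tankyrases were thus higher in CD38 KO. PARP11 rose from 3.73 ± 0.0770 to 5.66 ± 0.372 CPM (edgeR adjusted p = 0.000837), and TIPARP, a target of the aryl hydrocarbon receptor, fell by a log2 fold change of 0.20 (edgeR adjusted p = 0.00311). PARP16, a PARP of the endoplasmic reticulum membrane, had a log2 fold change of -0.15 (edgeR adjusted p = 0.139), and -0.24 with library size alone, where it was past the threshold (edgeR adjusted p = 0.0212, with 0.0212 to 0.400 as the span of all settings). PARP15, which lies between DTX3L and PARP14, had 2 counts in WT replicate 3, 2 in CD38 KO replicate 1 and 0 in the other libraries and was not tested.

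Among the other deltex ligases, the direction was opposite to that of DTX3L. All 3 tested fell: DTX3 from 32.8 ± 1.20 to 10.5 ± 0.383 CPM (log2 fold change -1.65, edgeR adjusted p = 1.78e-13), DTX4 from 0.947 ± 0.328 to 0.332 ± 0.125 CPM (edgeR adjusted p = 0.00213) and DTX2 by a log2 fold change of 0.27 (edgeR adjusted p = 0.00734). DTX1 was not tested. The median log2 fold change of the 3 tested was -1.51, which is the value of DTX4, the gene with the lowest counts of them. DTX3L therefore differed in sign from each of them; the difference itself was not tested.

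**Figure D3:**
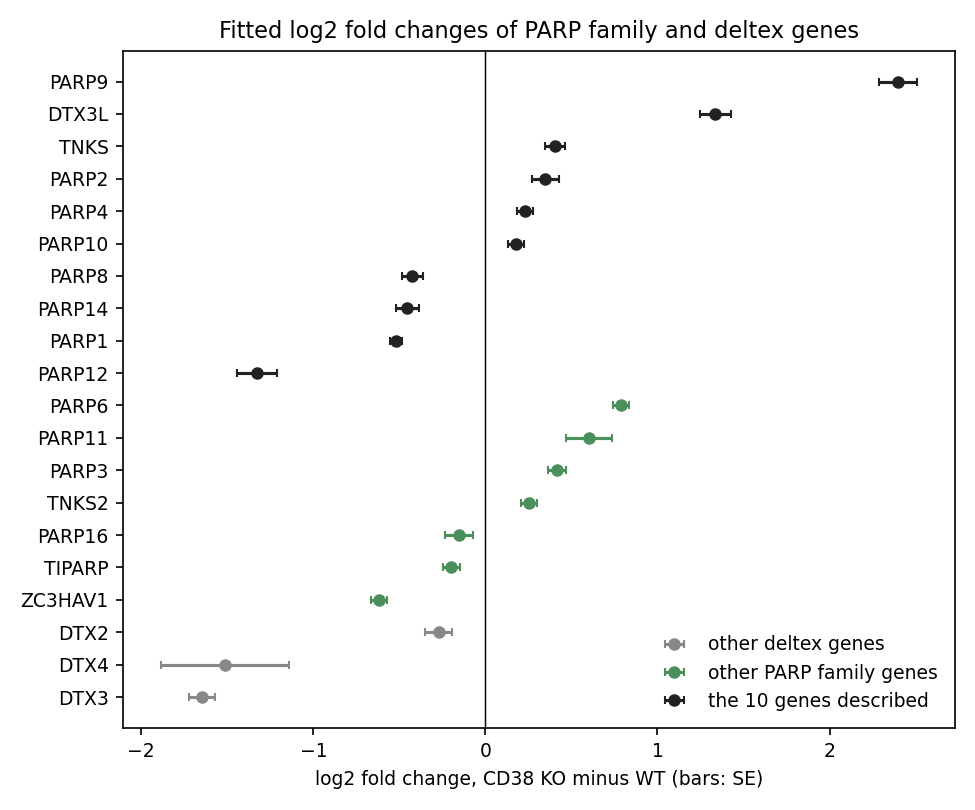
Fitted log2 fold change of CD38 KO against WT with its SE (bars) for the 10 genes (black), the other tested PARP family genes (green) and the other tested deltex genes (grey). PARP9 at 2.40 and DTX3L at 1.34 lie above all others, and PARP12 at -1.33 is the lowest of the PARP family.

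Genes that remove ADP-ribose or hydrolyse it changed in both directions. Of 9 tested, 2 rose, 4 fell and 3 were not past the threshold, with a median log2 fold change of -0.13; with library size alone 1 rose and 7 fell. ADPRH, which removes ADP-ribose from arginine, fell from 12.5 ± 0.772 to 3.40 ± 0.195 CPM (log2 fold change -1.87, edgeR adjusted p = 1.70e-11). MACROD1, a mitochondrial macrodomain hydrolase, rose from 58.7 ± 1.98 to 81.5 ± 3.10 CPM (edgeR adjusted p = 9.94e-08), and its relative MACROD2 fell from 3.60 ± 0.154 to 2.32 ± 0.182 CPM (edgeR adjusted p = 0.00334). PARG, the main enzyme that cuts ADP-ribose chains, went from 48.4 ± 3.36 to 45.7 ± 1.22 CPM (edgeR adjusted p = 0.276).

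The phosphodiesterase ENPP1 and the nudix hydrolase NUDT16 fell by log2 fold changes of 0.81 and 0.29 (edgeR adjusted p = 0.000160 and 0.00250). NUDT5 rose by 0.19 (edgeR adjusted p = 0.00253), a call lost with library size alone (edgeR adjusted p = 0.0669, spanning 0.000983 to 0.0669 over the settings).

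Partners of PARP1 and PARP2 in strand break repair and at the replication fork were likewise divided. Of 12 tested, 3 rose, 3 fell and 6 were not past the threshold, with a median log2 fold change of 0.0369. HPF1, which directs PARP1 and PARP2 to serine, fell from 37.2 ± 3.44 to 29.4 ± 1.11 CPM (edgeR adjusted p = 0.000449). The replication fork factor TIMELESS and the flap nuclease FEN1 fell by log2 fold changes of 0.60 and 0.43 (edgeR adjusted p = 5.12e-09 and 1.78e-08). XRCC1, the scaffold that ADP-ribose chains recruit, and its ligase LIG3 rose by 0.36 and 0.21 (edgeR adjusted p = 3.67e-05 and 0.00151).

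MACROH2A1, a histone with a macrodomain, rose by 0.17 (edgeR adjusted p = 0.000951), a call lost with library size alone (edgeR adjusted p = 0.0637, spanning 0.000332 to 0.0637 over the settings).

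Of 8 tested partners and substrates of the tankyrases, 0 rose, 3 fell and 5 were not past the threshold in edgeR, with a median log2 fold change of -0.16. These are RNA levels, while tankyrases act on the proteins. At an unadjusted p under 0.05, 1 of the 8 was higher, and DESeq2 and limma-voom called 0 higher. The ubiquitin protease USP25 fell by a log2 fold change of 0.42 and TERF1 by 0.32 (edgeR adjusted p = 7.82e-07 and 0.000376). AXIN1, a scaffold of the beta-catenin destruction complex, fell by 0.24 (edgeR adjusted p = 0.0158), which missed the threshold when WT replicate 2, WT replicate 3 or the second CD38 KO library was left out (edgeR adjusted p = 0.0542, 0.0564 and 0.0541), spanning 0.00194 to 0.0564 over the settings. With WT replicate 1 left out, 2 of the 8 genes were higher, and with CD38 KO replicate 2 left out, 1 was. For the vault particle of PARP4, the major vault protein MVP rose from 238 ± 20.6 to 298 ± 4.48 CPM (edgeR adjusted p = 2.69e-05), and TEP1 was not past the threshold.

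Of the interleukin-4 receptor genes and STAT6, with which PARP14 works, 6 were tested and 3 rose and 3 fell. STAT6 fell from 152 ± 2.88 to 77.6 ± 2.75 CPM (log2 fold change -0.96, edgeR adjusted p = 1.80e-13), in the direction of PARP14. The shared receptor chain IL2RG fell from 174 ± 6.78 to 72.4 ± 5.63 CPM and the kinase JAK3 that binds it rose from 102 ± 4.75 to 289 ± 5.28 CPM (edgeR adjusted p = 8.78e-14 and 9.88e-17). JAK1 had a log2 fold change of -0.22 and IL13RA1 one of 1.55 (edgeR adjusted p = 3.96e-05 and 3.23e-08). IL4R rose by 0.25 (edgeR adjusted p = 0.0417). IL4R missed the threshold with library size alone (edgeR adjusted p = 0.167), without the first or the second WT library (0.0793 and 0.250) and without the second or the third CD38 KO library (0.0822 and 0.147), spanning 0.0130 to 0.250 over the settings.

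Interferon signalling genes moved in both directions. Of 15 tested, 6 rose, 4 fell and 5 were not past the threshold, with a median log2 fold change of 0.0298. The transcription factor IRF1 rose from 123 ± 2.65 to 192 ± 8.45 CPM (log2 fold change 0.65, edgeR adjusted p = 8.65e-11). STAT2, which with IRF9 is part of the complex that binds the response element, fell from 327 ± 10.7 to 233 ± 5.57 CPM (edgeR adjusted p = 1.61e-09). IRF9 rose from 3.16 ± 0.162 to 5.09 ± 0.250 CPM (edgeR adjusted p = 0.000407), IRF7 fell by a log2 fold change of 0.37 (edgeR adjusted p = 1.35e-05), and the receptor chain IFNGR2 rose by 0.47 (edgeR adjusted p = 2.29e-08).

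The 42 further genes that interferons induce were divided as PARP9, DTX3L, PARP12 and PARP14 were. Of 40 tested, 15 rose, 16 fell and 9 were not past the threshold, with a median log2 fold change of -0.0352. The exonuclease ISG20 rose from 58.5 ± 1.23 to 133 ± 6.15 CPM, the dynamin-like MX2 from 0.877 ± 0.0874 to 7.77 ± 0.551 CPM and the scramblase PLSCR1 from 52.0 ± 1.99 to 96.8 ± 2.35 CPM (edgeR adjusted p = 2.17e-14, 1.11e-12 and 3.24e-12). The RNA sensor IFIH1 fell from 111 ± 2.55 to 65.1 ± 1.06 CPM and SAMD9 from 32.5 ± 1.11 to 16.4 ± 0.0868 CPM (edgeR adjusted p = 1.01e-11 and 1.59e-10). The largest fall of the list, chosen after its value was seen, was that of IFI44, from 118, 140 and 115 counts in WT to 4, 8 and 8 in CD38 KO. CMPK2 and IFI44L had too few counts to be tested. Because the list went both ways, any change of PARP9, DTX3L, PARP12 or PARP14 would match part of it, and nothing is read from that.

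The response element core in the promoter did not go with 1 direction. Of the interferon-induced genes, 36 had a promoter window and 24 of these (66.7%) held this core. Those without a window were MX2, OAS2, OASL and GBP2, which rose, TRIM22, which fell, and IFIT2, which was not past the threshold. Among the 23 tested with a match, 8 rose, 10 fell and 5 were not past the threshold, and among the 11 tested without one, 3 rose, 5 fell and 3 were not. Over all tested genes with a promoter window, 27.8% of 478 with the match were higher and 31.6% lower, beside 28.1% and 27.2% of 10926 without it. The interferon gamma element, TTCNNNGAA, stood at 9 of the 36, of which 6 rose. The others, IFI35, IFITM1 and OAS1, with log2 fold changes of -0.00760, 0.35 and 0.0811, were not past the threshold. Among the 11 interferon signalling genes with a window, the element stood at IRF1 and IRF9, which rose, and at IFNLR1, which was not past the threshold. Of the PARP genes with a window, it stood at PARP2, which rose, and PARP14, which fell. Over all tested genes with it 28.6% were higher and 26.5% lower, beside 28.0% and 27.5% of those without it. A link of this element with direction was not tested. The letters GAAACTGAAA found at PARP9 and DTX3L were also found at 11 of the interferon-induced genes, of which 3 rose, 5 fell and 3 were not past the threshold. The 2 with the largest rises and the 2 with the largest falls, among those at a group mean of at least 5 CPM, are shown to make the point that the same letters stood at genes of either direction. They were chosen after their values were seen, and capitals mark the response element core alone. BST2, a tether of virus particles, rose from 336 ± 1.52 to 442 ± 10.4 CPM, and the guanylate-binding protein GBP1 fell from 15.8 ± 0.297 to 7.02 ± 1.02 CPM (edgeR adjusted p = 1.37e-08 and 8.11e-09).
ISG20, which rose, chr15:88638937-88638966, plus strand: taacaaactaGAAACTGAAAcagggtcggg
BST2, which rose, chr19:17405741-17405770, minus strand: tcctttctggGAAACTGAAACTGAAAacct
GBP1, which fell, chr1:89065316-89065345, plus strand: agagtaatatGAAACTGAAAgtacttcgtt
SAMD9, which fell, chr7:93118096-93118125, minus strand: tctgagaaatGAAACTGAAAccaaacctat

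The stretch of BST2 holds a pair of overlapping matches to the core, and a match to TTCNNNGAA that overlaps the first of them and begins in the lower case bases. A match describes letters in these windows and does not show that a factor binds there.

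**Figure D4:**
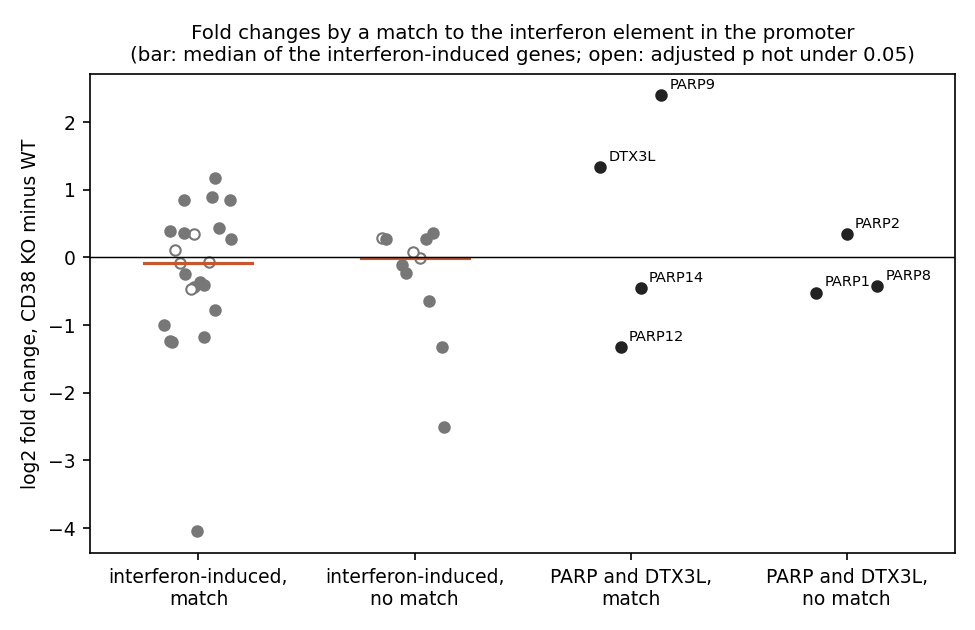
Log2 fold change of CD38 KO against WT for tested interferon-induced genes and for the PARP genes and DTX3L that had a promoter window, by whether the window matched the response element core; filled points have an adjusted p under 0.05, open points do not, and the orange bars are medians of the interferon-induced genes. Genes with a match lie on both sides of 0, with PARP9 at 2.40 and PARP12 at -1.33.

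PARP9, DTX3L and PARP14 lie close together on chromosome 3, so their tested protein-coding neighbours were examined, 5 on each side. Of these 10 genes, 2 rose, 4 fell and 4 were not past the threshold, with a median log2 fold change of -0.0937. On the side of PARP9, the nearest neighbour KPNA1, a nuclear import receptor, rose from 70.6 ± 0.849 to 80.5 ± 1.31 CPM (log2 fold change 0.19, edgeR adjusted p = 0.00194), a call lost with library size alone (edgeR adjusted p = 0.0634, spanning 0.000586 to 0.0634 over the settings). WDR5B, FAM162A and CCDC58 had log2 fold changes of -0.0355, -0.0270 and -0.0209 and were not past the threshold, and beyond them the costimulatory ligand CD86 fell from 29.7 ± 1.14 to 12.2 ± 0.460 CPM (edgeR adjusted p = 1.12e-11). On the side of PARP14, HSPBAP1 and SLC49A4 fell by log2 fold changes of 0.62 and 0.91 (edgeR adjusted p = 2.09e-07 and 1.95e-08).

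PARP14 therefore had the direction of the next 2 genes beyond it, and PARP9 and DTX3L stood out from their nearest neighbours by size. Further out, the disulfide isomerase PDIA5 rose by 0.38 (edgeR adjusted p = 4.94e-06), SEC22A was not past the threshold, and the adenylate cyclase ADCY5 went from 0.454 ± 0.0782 to 0.122 ± 0.0689 CPM (edgeR adjusted p = 0.00495).

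**Figure D5:**
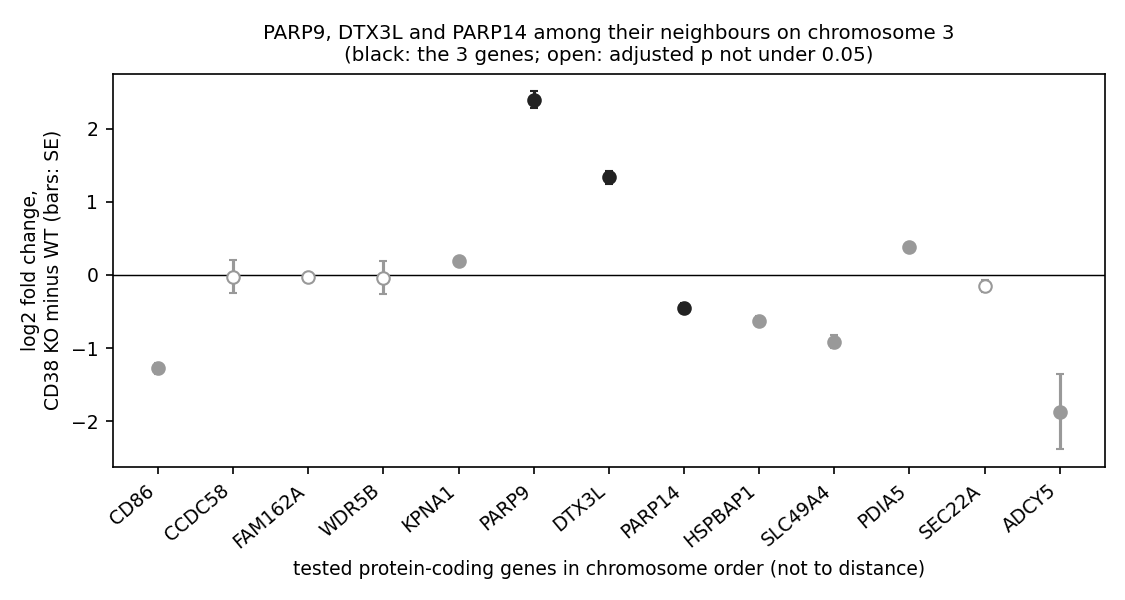
Log2 fold change of CD38 KO against WT with its SE for PARP9, DTX3L and PARP14 (black) and 5 tested protein-coding genes on either side (grey) in chromosome order, not to distance; open points have an adjusted p not under 0.05. PARP9 and DTX3L rise above KPNA1, at 0.19, and above WDR5B, FAM162A and CCDC58, near 0. PARP14, HSPBAP1 and SLC49A4 are all below 0, and CD86 and ADCY5 at the ends are at -1.28 and -1.87.

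The chromosome around each gene was compared too. On chromosome 13, which carries PARP4, 62.9% of the 229 other tested protein-coding genes were higher in CD38 KO and 5.68% lower, with a median log2 fold change of 0.46. Within 5 Mb of PARP4, 32 of 45 genes were higher and 1 lower, with a median of 0.58, so the 0.23 of PARP4 lay below its surroundings. The part of the chromosome in the value of PARP4 was not tested. Around PARP11 on chromosome 12, 48 of 77 genes within 5 Mb were higher and 4 lower (median 0.47), and around PARP6 on chromosome 15, 41 of 69 were higher and 9 lower (median 0.31), beside log2 fold changes of 0.60 and 0.79 for these genes. Neither chromosome as a whole leaned that way: 23.7% of the 717 other tested protein-coding genes of chromosome 12 were higher and 41.6% lower (median -0.15), and on chromosome 15 33.8% of 423 were higher and 39.2% lower (median -0.00344). The part of these surroundings was not tested either.

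For the other 9 of the 10 genes, the median of the chromosome lay between -0.0577 and 0.0229. Within 5 Mb of TNKS, 5 of 26 genes were higher and 12 lower (median -0.27), against 0.41 for TNKS.

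The genes whose profile over the 6 libraries was most like that of PARP9 were sought among 9587 protein-coding genes with a mean of at least 5 CPM. Likeness was the root mean square difference between log2 CPM profiles after subtracting each gene's own mean. The closest were INHBE, a subunit of activin E, at 0.0644, then DEPP1 at 0.108, the syndecan SDC3 at 0.109, the ion channel subunit CALHM3 at 0.121 and the sugar phosphate transporter SLC37A1 at 0.123. INHBE went from 10.1 to 49.2 CPM. The mean of at least 5 CPM was over all 6 libraries. SDC3 and SLC37A1, with WT means of 3.26 and 1.82 CPM, reached it only through CD38 KO. DTX3L stood only at place 144, at 0.543, its rise being the smaller. For DTX3L the closest were SGO1, which protects sister chromatid cohesion, at 0.0448, the spindle protein TROAP at 0.0563, DEPDC1 at 0.0588, the mitochondrially encoded MT-ATP6 at 0.0612 and the homeodomain protein HOPX at 0.0630. In the order for DTX3L, PARP9 stood at place 2170, also at 0.543. With 2 groups of libraries, the likeness measure mostly reflects the size of the difference between them.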

How the data were processed

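Counts per gene were deposited by the authors as 1 table with 1 column of raw counts for each of 6 MM.1S libraries, 3 WT and 3 CD38 KO. STAR 2.7.9a, Partek and DESeq2 appear in the submitters' processing notes, with no role. How strand was used, the counting program, annotation and genome build: not given in the sources used here. The table had 60871 lines; 200 repeated an identifier with the same counts, and each identifier was kept once. Chromosomes, exon lengths and gene order came from GENCODE 29 by Ensembl identifier, and promoter sequences from RefSeq (GRCh38.p14) by symbol.

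The comparison of CD38 KO with WT used R 4.3.3 and the quasi-likelihood test of edgeR 4.0.16 (TMM factors, filterByExpr, robust estimates, no covariate), with Benjamini-Hochberg adjustment over all 20120 tested genes and a threshold of 0.05. The SE is the size of the log2 fold change divided by the square root of F. CPM uses TMM-scaled library sizes. The procedure was tested on simulated counts in which far fewer genes changed than were called in these data. That test does not show how the procedure performs where so many genes differ.

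The members and lists (9 lists, 107 entries, 1 under an older symbol) were chosen with earlier results of these data known. The rule named the members, all other PARP genes, the neighbours and CD38. It also named up to 6 genes per list with the smallest adjusted p, and the 5 genes most like PARP9 and DTX3L. Values of PARG, IRF9, IFI44, IFI35, IFITM1, OAS1 and the genes shown by sequence beyond these lie outside the rule. They were added after they were seen. TEP1 and SEC22A, which the rule covers, were also added after their values were seen. A gene of the interferon signalling list that the rule names is not reported here. Alternatives were RLE, upper-quartile and no factors, no filter, 1 CPM in 3 libraries, DESeq2 1.42.0, limma-voom (limma 3.58.1), a replicate block, protein-coding genes only and each library left out.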

Additional observations from a re-analysis of the deposited data

How the results depend on the processing

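Across 15 alternatives, the log2 fold changes of the 10 genes kept their direction, and 149 of 150 values kept their side of the threshold. The exception was PARP10 with library size alone, at 0.0946. With that scaling 3632 of all tested genes were higher and 5570 lower, beside 4592 and 4342 with TMM factors. It also left 1 gene of ADP-ribose removal higher and 7 lower and 1 chromosome neighbour of PARP9, DTX3L and PARP14 higher. The number of tankyrase partners higher ranged from 0 to 2 when each library was left out. The cause was not tested. For 68 other named genes, 1002 of 1018 values kept their side, 11 lost the call, 5 gained it and 0 called values turned sign; FAM162A, CCDC58 and WDR5B, near 0 and never past the threshold, changed sign in 6 fits.

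With the replicate number as a block, 8918 genes were past the threshold, beside 8934 without it, and no call of the 10 genes changed. Same-numbered libraries of the groups deviated together with correlations of 0.0337, -0.00800 and -0.0207, differently numbered ones with up to 0.0351, and not every library correlated best with its own number, so the numbers were not taken to pair the libraries. PARP9 in WT rests on 183 to 262 counts per library, and its SE of 0.112 and that of PARP12, 0.119, were the largest of the 10 genes.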
